A study of Mus musculus with 6 samples.

Results

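Pitx1, Dach1, Lhx2, Tbx1, Pax6, Pax7, Hmx2 and Msx2 are transcription factors or cofactors of embryonic patterning, measured here in SIRT7 overexpressing cells on expression arrays. All probes of the array that carry 1 of these 8 gene names were taken, apart from control spots, which gave 11 of the 61307 probes and 8 of the 50090 gene names. Dach1, Pax6 and Hmx2 had 2 probes each and the other genes 1 each. The group was put together because its genes had been listed as altered in these same arrays, so the values below describe the genes and no test was made on them. Signals were seen to be higher than in control cells for 5 of the 8 genes, namely Pitx1, Dach1, Lhx2, Tbx1 and Pax6. For Pax7 and Hmx2 the signal was lost in both lines, and Msx2 was seen on a single array.

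NIH3T3 is a mouse embryonic fibroblast line. Cells stably expressing GFP alone served as the control and are called GFP. LT7 and ST7 both express SIRT7 fused to GFP, and SIRT7 is a nuclear deacetylase found mainly in the nucleolus. LT7 cells are long and spindle shaped, ST7 cells are small and grow in aggregates, and each line was picked from confluent SIRT7GFP cultures and grown from a single cell, so each is 1 clone. The labels describe the GFP cells as clones too, and all cells were grown in the same serum-containing medium. Each group had 2 arrays with RNA from different passages, so the replicate spread is that between passages of a clone, and a difference between a line and GFP cannot be told apart from a difference between clones. The same 2 GFP arrays served as the reference for both lines.

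Pitx1, Lhx2, Pax6, Pax7, Hmx2 and Msx2 carry homeodomains, Tbx1 a T-box, and Pax6 and Pax7 a paired domain as well. Dach1 is a nuclear cofactor of the Ski family that works with Eya and sine oculis proteins. In embryos Pitx1 gives the hindlimb its identity, Lhx2 is needed for limb outgrowth, the forebrain and the eye, Tbx1 for the pharyngeal arches, Pax6 for the eye, Pax7 for muscle satellite cells and the neural crest, Hmx2 for the inner ear, and Msx2 for the skull and limb. Differentiated fibroblasts usually keep only part of such programmes active.

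The probes of the 5 genes seen in ST7 are shown because each statement on a gene rests on 1 or 2 such stretches. The first 30 of 60 bases are given, and for Pax6 all 60, since its probes lie in different parts of the coding sequence. The brighter Pax6 probe matches the end of the coding sequence. The other Pax6 probe lies in the paired domain and runs into its alternatively spliced exon.
Pitx1: taaatctgtctatatcaacttgtccatgta
Dach1, brighter probe: catcataatgcaagaattggaaatttttct
Dach1, other probe: tgtcttccatagagacccttctcactaaca
Lhx2: agagcttccgtattttcaaagactgccacg
Tbx1: gtgtagatatgtgtagatactgtagatact
Pax6, brighter probe: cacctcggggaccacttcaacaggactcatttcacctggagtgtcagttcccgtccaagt
Pax6, other probe: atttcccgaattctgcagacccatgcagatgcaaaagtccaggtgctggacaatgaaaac

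Values are processed signals, that is spot intensities with the background subtracted by the scanner software and no scaling between arrays. The same software marks a spot as well above background or not, and a gene is called seen on an array where its probe was so marked. Spots near background carry small substitute values. For a gene not seen in a group, only a lower limit of the fold can be given, which sets the mean of the brighter group against a floor. That floor was set array by array in the dimmer group, at the lowest signal of any probe seen there or at the signal of the probe itself, whichever was larger. Log2 changes and folds were computed after subtracting each array's 75th percentile, as the study did, and without scaling. The 75th percentile was 384 and 323 on the GFP arrays, 341 and 317 on the LT7 arrays, and only 16.3 and 17.1 on the arrays labelled ST7, where the shift therefore adds to every change. The median log2 change of all probes against GFP was 0.17 in LT7 and 3.72 in ST7 after the shift, and 0.07 and -0.68 without scaling. The share of probes seen was 53.6% to 57.5% in GFP, 47.5% to 47.6% in LT7 and 25.8% to 26.4% in ST7.

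Sirt7 was measured by a pair of probes. The brighter had a signal of 3120 and 2480 on the GFP arrays and 3630 and 2780 on the LT7 arrays, but 2.85 and 3.28 on the arrays labelled ST7, where neither probe was seen. The LT7 signals overlapped those of GFP. Since the overexpressed gene goes against the label, ST7 stands below for the arrays so labelled, and every direction drawn for ST7 rests on that label. Whether the probes lie within the inserted sequence was not determined.

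Pitx1 (NM_011097), the hindlimb homeodomain factor, had a signal of 2.86 and 2.79 on the GFP arrays, 149 and 127 on the LT7 arrays, and 4300 and 4870 on the ST7-labelled arrays. It was seen on all 4 arrays of the SIRT7 lines and on neither GFP array, and no values of different groups overlapped. Its mean was 2.82 ± 0.0529 (SD, n = 2) for GFP, 138 ± 15.6 for LT7 and 4580 ± 403 for ST7. After the shift Pitx1 was at least 10.9-fold higher in LT7 than in GFP and at least 7150-fold higher in ST7. Without scaling these limits were 10.2-fold and 339-fold, so that only the limit for ST7 depended strongly on the scaling. Its LT7 signal was 3.25% and 2.76% of the ST7 mean in replicates 1 and 2.

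For Dach1 (NM_007826), the Ski family cofactor, the brighter probe gave 2.82 and 2.81 on the GFP arrays, 98.1 and 108 on the LT7 arrays, and 2720 and 3320 on the ST7-labelled arrays. As for Pitx1, it was seen on every LT7 and ST7 array and on no GFP array. The means were 103 ± 6.70 (SD, n = 2) in LT7 and 3020 ± 421 in ST7. The lower limit of the fold against GFP was 8.15 in LT7 and 4700 in ST7 after the shift, and 7.62 and 223 without scaling. The other Dach1 probe gave 7.82 and 7.21 on the GFP arrays, 4.03 and 4.67 on the LT7 arrays, and 57.4 and 38.5 on the ST7 arrays. This probe was seen in ST7 alone, so the LT7 signal of Dach1 was carried by 1 of its 2 probes. If the LT7 share of the brighter probe, 3.40%, also held for the other, its LT7 signal would be 1.63, under the lowest signals seen on the LT7 arrays, 20.0 and 22.3. A signal of that size was not detectable in LT7.

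Lhx2 (NM_010710), a LIM homeodomain factor, had a signal of 2.82 and 2.79 on the GFP arrays, 19.3 and 23.7 on the LT7 arrays, and 1290 and 1190 on the ST7-labelled arrays. Only replicate 2 of LT7 was marked as well above background, and both LT7 values lay close to the lowest signals seen on those arrays. The lower limit in LT7 was 1.70-fold after the shift and 1.59-fold without scaling. In ST7 it was 1940-fold and 91.8-fold, in the same order.

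Tbx1 (NM_011532), the T-box factor of the pharyngeal arches, had a signal of 2.94 and 2.95 on the GFP arrays, 41.1 and 49.5 on the LT7 arrays, and 1610 and 1520 on the ST7-labelled arrays. It was seen on all 4 arrays of the SIRT7 lines and not in GFP. The mean was 45.3 ± 5.96 (SD, n = 2) in LT7 and 1560 ± 68.6 in ST7. Tbx1 was at least 3.58-fold higher in LT7 than in GFP after the shift and at least 3.34-fold without scaling. In ST7 the limits were 2440-fold and 116-fold.

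Pax6 (NM_013627), the eye and neural factor, had a signal of 8.80 and 12.4 on the GFP arrays, 42.8 and 59.9 on the LT7 arrays, and 2310 and 2060 on the ST7-labelled arrays at its brighter probe. This probe was likewise seen in both lines and not in GFP. The mean was 51.4 ± 12.0 (SD, n = 2) in LT7 and 2190 ± 173 in ST7, and the lower limits against GFP were 4.02-fold and 3410-fold after the shift, and 3.75-fold and 162-fold without scaling. The probe in the paired domain gave 2.75 and 2.83 on the GFP arrays, 5.04 and 4.60 on the LT7 arrays, and 38.7 and 23.5 on the ST7 arrays, and was seen in ST7 alone. At this other probe the lower limit in ST7 was 47.2-fold after the shift and 2.24-fold without scaling. Since it runs into an alternatively spliced exon, the 2 probes need not report the same transcripts.

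**Figure D1:**
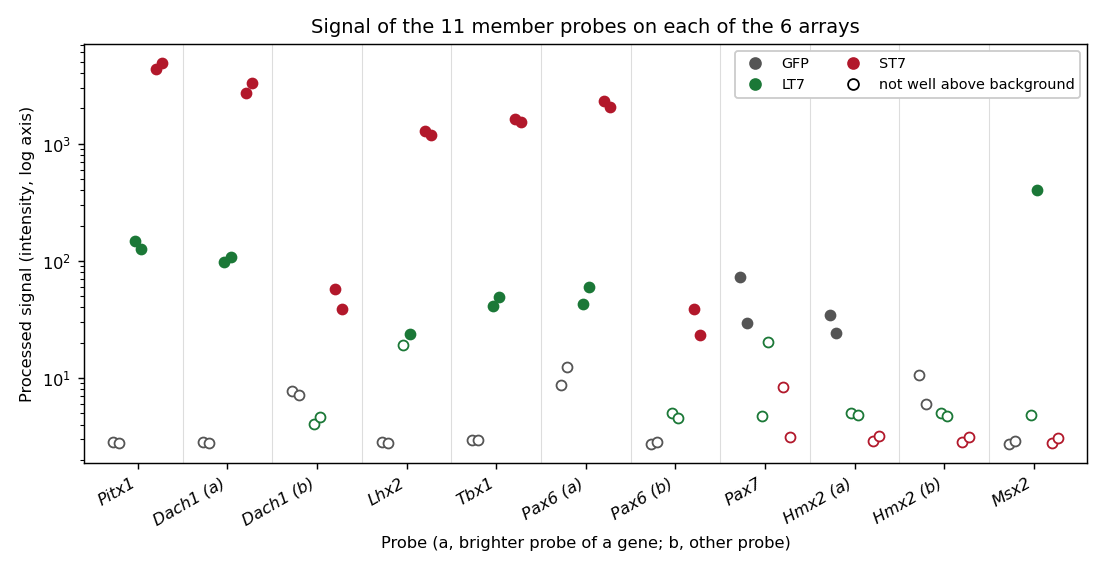
Processed signal (log axis) of the 11 probes on the 2 GFP, 2 LT7 and 2 ST7 arrays, 1 point per array, with open points for spots not well above background. Pitx1, the brighter probes of Dach1 and Pax6, Lhx2 and Tbx1 sit above 1000 in ST7 and far lower in LT7, Pax7 and the brighter Hmx2 probe are seen in GFP alone, and Msx2 stands out on 1 LT7 array at 403.

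Pax7 (NM_011039), the satellite cell factor, ran the other way, with a signal of 72.9 and 29.2 on the GFP arrays, 4.73 and 20.4 on the LT7 arrays, and 8.37 and 3.15 on the ST7-labelled arrays. It was seen on both GFP arrays and on no other. The GFP mean of 51.1 ± 30.9 (SD, n = 2) had a wide spread. Pax7 was at least 2.04-fold lower in LT7 than in GFP after the shift. In ST7 no limit can be given after the shift, because the GFP signal then lies under the floor, and without scaling Pax7 was at least 3.14-fold lower. The direction of its log2 change in ST7 depended on the scaling, at 1.23 after the shift and -3.17 without it.

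Hmx2 (NM_145998), the inner ear homeodomain factor, had a signal of 34.8 and 24.3 on the GFP arrays, 5.03 and 4.80 on the LT7 arrays, and 2.90 and 3.21 on the ST7-labelled arrays at its brighter probe. This probe too was seen in GFP alone. It was at least 1.29-fold lower in LT7 than in GFP after the shift and at least 1.38-fold lower without scaling. In ST7 the log2 change was 1.15 after the shift but -3.25 without scaling, where Hmx2 was at least 1.98-fold lower, so a higher value in ST7 is produced by the shift and not by the signal. The other Hmx2 probe was seen on no array, with 10.6 and 6.04 on the GFP arrays, 5.04 and 4.76 on the LT7 arrays, and 2.87 and 3.15 on the ST7 arrays.

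Msx2 (NM_013601), the skull and limb homeodomain factor, had a signal of 2.74 and 2.93 on the GFP arrays, 4.80 and 403 on the LT7 arrays, and 2.80 and 3.10 on the ST7-labelled arrays. Its log2 change in LT7, 4.05 after the shift, came from replicate 2 alone and was 0.81 without that array and 7.30 without replicate 1. In LT7 replicate 2 there were 100 probes with a signal of at least 100 that were seen on no other array, against 3 to 23 on each of the other 5 arrays. Dach2, the relative of Dach1, was among the single-array signals, with 251 in LT7 replicate 2 and at most 4.78 elsewhere.

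Counted over the array, 1.08% of all probes were seen on both ST7 arrays and on neither GFP array, and 7 of the 11 probes, from 5 genes, were among them. In LT7 4 of the 11 were seen on both arrays and on neither GFP array, where 0.0816% of all probes were. The same 4, of Pitx1, Dach1, Tbx1 and Pax6, were seen in both lines and not in GFP, as were 25 of all probes, or 0.0408%. Of the 11 probes, 2 were seen in GFP and in neither LT7 array, with 4.3% of all probes, and 2 in GFP and in neither ST7 array, with 27.7%. By the fold rule of the study, with a log2 ratio of at least 0.8 in size in each replicate and a mean over 1, 6 of the 11 were up in LT7 and 2 down, with 2.89% and 3.02% of all probes. In ST7 10 were up by this rule, where 70.7% of all probes were, and 0 down, where 19.0% were. The median log2 change of the 11 probes was 2.38 in LT7 and 7.83 in ST7, with 0.17 and 3.72 over all probes. These medians include probes seen in neither of the groups compared. Since the genes had been listed for these contrasts, nothing is read from these counts or medians.

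**Figure D2:**
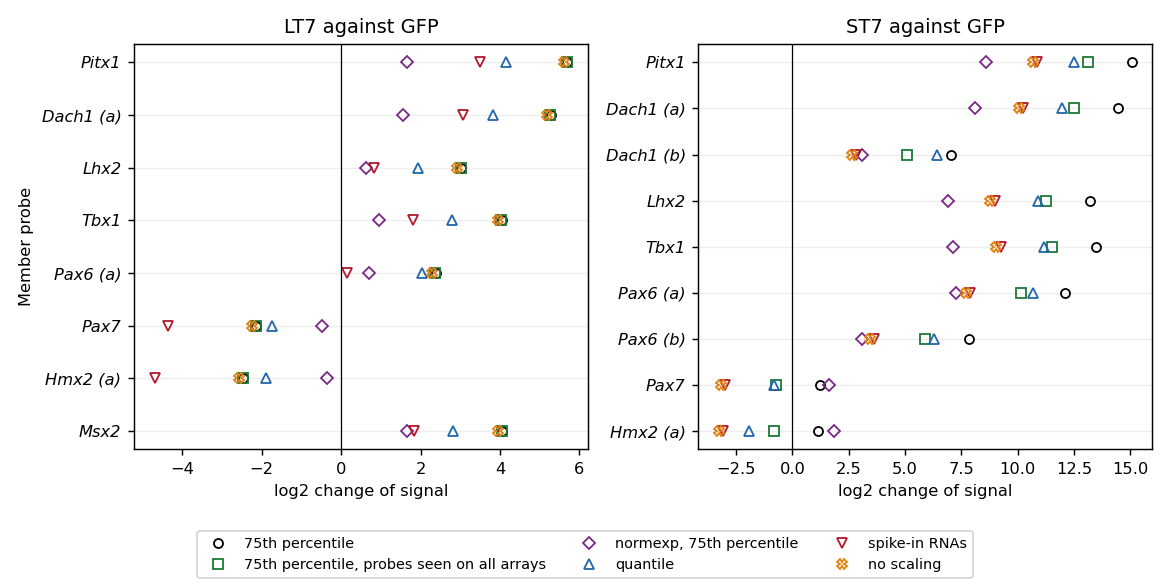
Log2 change of signal against GFP for the probes that were seen in at least 1 of the 2 groups, in LT7 (left) and ST7 (right), with 1 symbol per scaling of the arrays. Pitx1, Dach1, Lhx2, Tbx1 and Pax6 stay to the right of 0 in both lines under all of these scalings, while Pax7 and Hmx2 in ST7 lie on both sides of 0.

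The LT7 signal was a similar small share of the ST7 signal for all 5 genes that were bright in ST7. On the processed signal without scaling the share of the means was 3.0% for Pitx1, 3.40% for the brighter Dach1 probe, 1.73% for Lhx2, 2.90% for Tbx1 and 2.35% for the brighter Pax6 probe. In LT7 replicate 1 the shares ran in that order 3.25%, 3.25%, 1.56%, 2.63% and 1.96%. In LT7 replicate 2 they were 2.76%, 3.56%, 1.91%, 3.17% and 2.74%. Replicate 1 was the only array read in the second of 2 scans, and its spike-in RNAs were brighter than on the other arrays (for example 9.68 against 5.21 to 5.44 in log2). The share was lower in replicate 1 than in replicate 2 for Dach1, Lhx2, Tbx1 and Pax6 and higher for Pitx1, and the part of the scan in these values was not tested. At the dimmer probes of Dach1 and Pax6, where LT7 was near background, the quotient was 9.08% and 15.5% and rests on LT7 values that were not seen. For Pax7 and Hmx2 a share has no meaning, since neither line was seen.

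This similarity was shared with other genes. Of all probes seen on both ST7 arrays and on neither GFP array, 28 had a signal of at least 1000 on both ST7 arrays, and the LT7 share of each of them lay between 1.24% and 4.17%. Without the members there were 23, with a median of 2.16% (1.24% to 4.17%), beside a median of 2.90% (1.73% to 3.40%) for the 5 members. Of the 23, 16 were seen on both LT7 arrays, and of the 5 members 4 were. With the minimum lowered to 300 there were 49 other probes with a median of 2.24%, of which 48 had a share between 1% and 5%. Of the 49, again 16 were seen on both LT7 arrays, so none of the added probes was. The shares of the added probes thus rest on LT7 values near background and say little about a common share. Over all 661 such probes, most of them dim in ST7, the median was 16.8%, as the LT7 values then lie near background. Among the 23 were probes of Hoxa11, a homeobox gene of the limb (2.50%), Ckb, the brain type of creatine kinase (4.16%), Uchl1, a ubiquitin hydrolase of neurons (1.88%), Bmp2, a secreted growth factor (1.57%), and Krt18, a keratin of simple epithelia (1.24%). Ckb, Uchl1 and Bmp2 were chosen after their values were seen. In bulk RNA, a signal of this size in LT7 from few cells and one from little RNA in every cell cannot be told apart. The share of the members depended on the scaling, because the shift raises ST7. Over the 7 member probes seen in ST7 the median was 3.0% on the processed signal and 0.152% after the shift. Those 7 include the dimmer Dach1 and Pax6 probes, whose LT7 values were not seen.

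**Figure D3:**
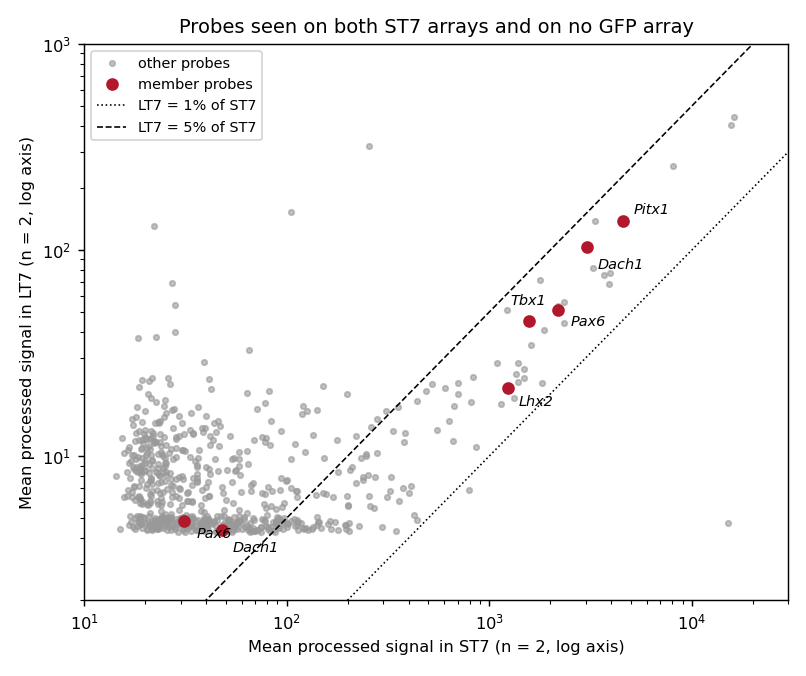
Mean signal in LT7 against mean signal in ST7 (both log axes, n = 2 arrays each) for the 661 probes seen on both ST7 arrays and on neither GFP array, with lines where LT7 is 1% and 5% of ST7. The probes of at least 1000 on both ST7 arrays, members included, lie between the lines, the dim ones level off near the LT7 background, and Cd86, picked out after its value was seen, lies far below at 0.0315% without reaching 1000 on both ST7 arrays.

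The genes whose signals over the 6 arrays were most like those of each factor were sought among 17312 named genes with a coding transcript, by the root mean square difference in log2. Hoxa11 was nearest to both Dach1 (0.23) and Pitx1 (0.52), with 2.87 and 2.88 on the GFP arrays, 85.0 and 78.2 on the LT7 arrays, and 3250 and 3270 on the ST7 arrays. Myl6b, a myosin light chain, was nearest to Lhx2 (0.23), Stk32c, a kinase, to Tbx1 (0.33), and Hs3st3b1, a heparan sulfate sulfotransferase, to Pax6 (0.14). The LT7 share of ST7 was 1.78% for Myl6b, 2.16% for Stk32c and 2.39% for Hs3st3b1. Pax7 was nearest to Krt2 (0.37) and Hmx2 to Cryba4 (0.09), but 89 and 338 genes lay within 1 of them, so these neighbours are not distinctive. For Pitx1 only 1 gene lay within 1.

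Of 40 relatives in the same gene families, 17 were seen on no array. Both GFP arrays showed 16 of them, both LT7 arrays 11 and both ST7 arrays 9. Only Tbx21, the T-box factor of T helper cells, was seen on both ST7 arrays and on neither GFP array, or 1 of 40, where 1.16% of all genes were by their brightest probe. Tbx21 had a signal of 8.81 and 10.3 on the GFP arrays, 4.14 and 5.09 on the LT7 arrays, and 57.6 and 53.3 on the ST7 arrays, and it rose at least 86.6-fold after the shift (adjusted p = 1.7e-05, limma) and at least 4.11-fold without scaling. Lmx1a and Tbx10, seen on no array, had the same adjusted p. A small p for a rise in ST7 after the shift, here or below, therefore shows no rise by itself. Genes named as gained or lost were also picked by their marks on these arrays. Lost in ST7 were 8 of 40 relatives, where 25.6% of all genes were. Tbx3, a repressor of the limb and heart, fell from 3910 and 3330 on the GFP arrays to 2.77 and 3.08 on the ST7 arrays (at least 11.6-fold after the shift, adjusted p = 1.7e-05, limma), with 3430 and 4130 on the LT7 arrays. Tbx15 fell at least 4.88-fold after the shift (adjusted p = 4.0e-05) and Tbx18 at least 1.08-fold (adjusted p = 0.00036), and without scaling the limits were 245-fold for Tbx3, 103-fold for Tbx15 and 22.7-fold for Tbx18. Members and relatives of a family thus differed in direction on the same arrays, with Tbx1 seen in ST7 and Tbx3, Tbx15 and Tbx18 lost there. Within the LIM homeodomain family, to which Lhx2 belongs, Isl1 had 26.5 and 23.1 on the GFP arrays, 27.9 and 22.1 on the LT7 arrays, and 745 and 820 on the ST7 arrays, while Lhx9 had 205 and 224 on the GFP arrays and was not seen in ST7.

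In LT7 limma called 0 of the 40 relatives in either direction at an adjusted p under 0.05, where it called 0.0499% of all genes up and 0.132% down. At an unadjusted p under 0.05 there were 15 of the 40, where 16699 of all 61307 probes were. Nothing is read from the 15. The fold rule called 1 of 40 up, Eomes, where it called 3.10% of all genes, and Eomes was seen on no array. Lost in LT7 were 3 of 40, where 4.3% of all genes were. For these 3 (Lhx4, Lmx1b and Hmx1) no fold limit can be given after the shift, because the GFP signal lies under the LT7 floor. In ST7 limma called 31 of 40 up and 5 down, where it called 72.3% and 19.1% of all genes, and without scaling it called 4 of 40 up and 10 down, so the direction of these calls went with the scaling.

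**Figure D4:**
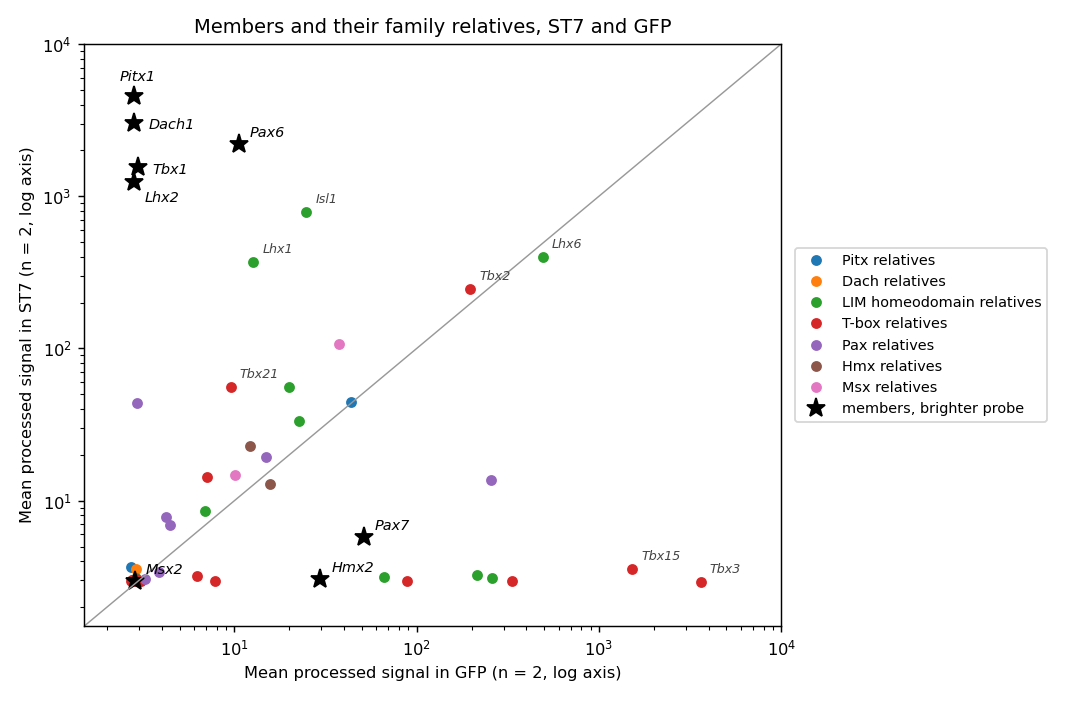
Mean signal in ST7 against mean signal in GFP (log axes, n = 2 arrays each) for the brighter probe of each of the 8 members (stars) and for the 40 relatives (points, coloured by family), with a line of equal signal. Pitx1, Dach1, Tbx1, Lhx2 and Pax6 stand in the upper left, above Isl1 and Lhx1, while Tbx3, Tbx15, Pax7 and Hmx2 lie near the bottom.

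Partners of these factors were counted in the same way. Of 22 on the array, 1 was seen in ST7 and not in GFP, the LIM-only protein Lmo1, with 2.86 and 2.87 on the GFP arrays, 5.22 and 6.12 on the LT7 arrays, and a mean of 94.9 ± 14.3 (SD, n = 2) in ST7. Lmo1 rose at least 147-fold after the shift (adjusted p = 1.7e-05, limma) and at least 6.99-fold without scaling. Lost in ST7 were 6 of 22, near the 25.6% of all genes. Among them were Ssbp4, which stabilises LIM complexes (at least 9.04-fold lower after the shift, adjusted p = 3.2e-05), and Six5 and Eya3, of the families with which Dach1 works (at least 1.74-fold and 1.08-fold lower, adjusted p = 0.0013 and 0.00036). Without scaling these limits were 191-fold, 36.7-fold and 22.8-fold. Of 31 genes of limb and craniofacial patterning 1 was gained in ST7, Hand2, with 16.1 and 17.5, close to the lowest signals seen there, and 7 were lost, again near the share of all genes. Prrx2, a mesenchymal homeodomain factor, fell from 18400 and 19000 on the GFP arrays to 14.3 and 5.86 on the ST7 arrays (at least 59.4-fold after the shift, adjusted p = 9.9e-05). Twist1 fell at least 3.57-fold (adjusted p = 2.4e-05) and Fgf10, the growth factor of the limb bud, at least 2.93-fold (adjusted p = 1.8e-05). Without scaling the limits were 1250-fold, 75.2-fold and 61.8-fold. In LT7 limma called 0 genes of the 22 partners, of the 31 limb genes, and of 13 muscle and 12 eye genes. At an unadjusted p under 0.05 there were 8, 10, 1 and 4 in that order, where 16699 of all 61307 probes were. Nothing is read from these unadjusted counts. The fold rule called 3 partners up and 1 down, 1 limb gene and 1 muscle gene down and 1 eye gene up, where it called 3.10% of all genes up and 3.13% down.

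Among the 13 muscle genes, of the tissue of Pax7, Myh3 and Ckm were gained in ST7 and 0 were lost, where 1.16% of all genes were gained and 25.6% lost. Only 2 of the 13 were seen on both GFP arrays and could be lost, so nothing is read from the 0. Myh3, the embryonic myosin heavy chain, had 4.91 and 7.95 on the GFP arrays and 324 and 169 on the ST7 arrays (at least 366-fold higher after the shift, adjusted p = 4.6e-05, limma), and Ckm, muscle creatine kinase, 3.08 and 2.90 on the GFP arrays and 36.1 and 39.4 on the ST7 arrays (at least 59.0-fold, adjusted p = 1.7e-05). Without scaling the limits were 17.3-fold and 2.80-fold. Of the 12 eye genes, of the tissue of Pax6, Sox2 was gained, with 2.87 and 2.89 on the GFP arrays, 5.22 and 4.81 on the LT7 arrays, and 71.7 and 122 on the ST7 arrays (at least 146-fold higher after the shift, adjusted p = 1.7e-05, and at least 6.93-fold without scaling). Mab21l1 and Mab21l2, relatives of each other that act in the eye, were lost in ST7. Mab21l1 had a log2 change of -0.19 (adjusted p = 0.41) after the shift and -4.59 without scaling, and Mab21l2 had 1.94 (adjusted p = 0.0011) and -2.46, so their loss shows in the marks and the unscaled signal only.

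Markers of several cell types were counted in the same way. Of 12 fibroblast markers 7 were lost in ST7, where 25.6% of all genes were, and 4 were seen on both ST7 arrays. Among the lost were Dcn, Thy1 and Lox, which were far above background in GFP and LT7. The summed signal of the 12 was 404000 to 415000 for GFP, 430000 to 439000 for LT7 and 15100 to 16600 for ST7. Of 12 epithelial markers Krt18, Dsp and Epcam were gained in ST7, where 1.16% of all genes were, and 0 lost. Only 4 of the 12 were seen on both GFP arrays and could be lost. The summed signal of the 12 was 448 to 501 in GFP, 318 to 416 in LT7 and 2120 to 2260 in ST7, where Krt18 made up most of it. Without scaling limma called 3 of the 12 up in ST7 and 2 down. Krt18 had 6.64 and 4.64 on the GFP arrays, a mean of 22.5 ± 3.50 (SD, n = 2) in LT7, and 1880 and 1750 on the ST7 arrays. Of 9 neural markers 0 were gained or lost in ST7, but only 3 were seen on both GFP arrays and could be lost. Of 7 blood and endothelial markers 0 were seen on both ST7 arrays. The part of these markers in the values of the patterning genes was not tested. Dcn, Thy1 and Lox were thus not seen on the arrays labelled ST7, on which Pitx1, Dach1, Lhx2, Tbx1 and Pax6 were bright.

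The starts of the genes were looked up in RefSeq (GRCm38.p6), which gave promoters for 7 of the 8 genes, all but Pitx1. Hmx2, Lhx2, Pax6 and Tbx1 each gave more than a single promoter, so the promoters counted below are not independent of each other. In the 250 bases before the start the observed over expected CpG count was 0.07 to 1.06 over 11 promoters of these genes, with a median of 0.37 over all 32851 promoters, and 10 of the 11 lay above that median. A GC content of at least 50% together with a CpG ratio of at least 0.6 was found in 7 of 11 promoters and in 31% of all. The motif GGGCGG, on either strand, was in 5 of 11 and in 32.7% of all. These are descriptions of the sequence and show no binding or methylation. The promoters of Dach1 and Lhx2 are given as examples of genes unseen in GFP and bright in ST7, with each CpG in capitals.
Dach1, chr14:98169766-98170015, minus strand: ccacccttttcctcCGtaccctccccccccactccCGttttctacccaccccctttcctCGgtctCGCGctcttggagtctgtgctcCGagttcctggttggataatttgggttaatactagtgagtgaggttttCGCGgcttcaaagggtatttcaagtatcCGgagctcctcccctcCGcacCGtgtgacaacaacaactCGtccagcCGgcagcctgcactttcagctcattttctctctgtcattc
Lhx2, chr2:38339031-38339280, plus strand: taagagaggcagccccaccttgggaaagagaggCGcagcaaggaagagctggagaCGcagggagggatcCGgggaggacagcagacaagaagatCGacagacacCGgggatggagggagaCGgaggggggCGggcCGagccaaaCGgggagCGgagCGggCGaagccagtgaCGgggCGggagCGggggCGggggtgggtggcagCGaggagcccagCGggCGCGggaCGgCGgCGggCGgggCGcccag
The Dach1 stretch holds 13 CpG and no GGGCGG, and the Lhx2 stretch 25 CpG and 4 GGGCGG.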

How the data were processed

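RNA of GFP, LT7 and ST7 cells (2 passages each) was hybridised to 6 one-colour Agilent arrays on 1 slide, read in 2 scans. The authors deposited intensity values, from which Feature Extraction had subtracted the background, and a series matrix in log2 after the authors' 75th percentile shift. Ratio and fold values were computed from the deposited intensities. Outlier spots were left out, repeated spots averaged, log2 taken and each array's 75th percentile subtracted. Limma 3.58.1 (R 4.3.3), tested on simulated data, compared the groups in 1 fit of the 6 arrays, and p-values were adjusted by Benjamini-Hochberg across every probe (threshold 0.05). Python 3.11.15 with pandas 2.3.3, numpy 2.4.6 and matplotlib 3.10.9 did the rest. The number of arrays limits the precision. The members and gene lists were chosen with earlier results of these data known. Per list, counted on each gene's brightest probe, up to 5 genes gained and 3 lost in ST7, and 3 gained in LT7, were named. The few others named were picked to show a family or after their values were seen. Alternatives were other scalings, normexp background correction (offset 50), the deposited matrix, outliers kept, dim probes left out, a replicate block, the fold rule and leaving out each array.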

Additional observations from a re-analysis of the deposited data

Results flagged for a closer look

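Among the members, the 40 relatives and the genes named from the partner, limb, muscle and eye lists, 9 probes had both LT7 values on one side of both GFP values and both ST7 values on the other side, after the shift and also without scaling. Lhx6 and Mab21l2 met this without scaling only, and the markers of other cell types were left out of this search. The difference of the changes without scaling, ST7 minus LT7, was 3.44 at the other Dach1 probe, where the LT7 change was -0.79 and the ST7 change 2.65, and the difference was not tested because Dach1 is a member. It was 3.59 for Tbx21, 1.82 for Lhx4 and 1.76 for Lmx1b, which were seen in ST7 and not in LT7. At that Dach1 probe and for Tbx21 neither GFP nor LT7 was seen, so their LT7 direction compares values near background. For genes seen in GFP and LT7 and not in ST7 the difference was -9.18 (Tbx15), -9.09 (Ssbp4), -7.48 (Six5), -6.54 (Lhx9) and -5.00 (Mab21l1). In limma's comparison of ST7 with LT7 after the shift, the adjusted p was 2.4e-05 for Lhx4, 2.6e-05 for Tbx21, 3.4e-05 for Lmx1b, Tbx15 and Ssbp4, 0.00048 for Six5, 0.0011 for Lhx9 and 0.021 for Mab21l1. Lmx1a, seen on no array, had an adjusted p of 3.4e-05 in the same limma comparison, so these values do not show a rise by themselves. The probes were also picked by the order of their values on these arrays, so a difference of ST7 from LT7 was built in. Nothing is read from these p-values, or from the count of 9, for which no share of all probes is given. Both changes use the same GFP arrays.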

How the results depend on the processing

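The log2 changes of Pitx1, Dach1, Lhx2, Tbx1 and Pax6 kept their direction at the brighter probes under each alternative run, from 0.16 for Pax6 in LT7 with spike-in scaling to 15.17 for Pitx1 in ST7. Spike-in scaling set LT7 replicate 1 apart, since its spike-in RNAs were brighter while its 75th percentile, 341, was near the 317 of replicate 2. The median LT7 change of all probes was then -2.05. That array also enters the spread used for ST7, so all counts with spike-in scaling carry this limit. The change of the brighter Hmx2 probe in ST7, 1.15 after the shift, was -3.25 without scaling, -1.90 with quantile normalization, -0.80 with the percentile over probes seen on all arrays and -3.06 with spike-in scaling. The median LT7 share of ST7 over the 7 member probes seen in ST7, the dimmer Dach1 and Pax6 probes included, was 3.0% unscaled. It was 0.152% after the 75th percentile shift, an alternative added after seeing the data, and 0.154% in the matrix. It was 0.31% with quantile normalization, 0.582% with the other percentile, 1.42% with spike-in scaling and 1.29% with normexp. With 1 array left out it was 2.99% to 3.25%.

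Limma called 108 probes in LT7. The count was 59 without scaling, 5 with quantile normalization, 69 with the other percentile, 3 with spike-in scaling, 438 with normexp, 264 with dim probes left out and 3624 by the fold rule. With 1 array left out it was 0 to 697, namely 0 without GFP replicate 1 or 2 (11129 and 16332 at an unadjusted p under 0.05), 14 without either ST7 array, 363 without LT7 replicate 1 and 697 without LT7 replicate 2. In ST7 against GFP it called 55534 (78.1% up), 28195 without scaling (9.31% up), 35276 with quantile normalization (57.3%), 13945 with spike-in scaling (1.74%) and 27867 with dim probes left out, and 66.5% of the calls were up with the other percentile. Against LT7 it called 55574 in ST7 (78.3% up), and 36322 (8.73%), 35001 (57.5%), 8293 (9.79%) and 28293 under these 4 settings, with 67.2% up with the other percentile. Of the 40 relatives, 36 were called in ST7, and 14, 22, 7 and 15 in that order. In LT7 0 were called, 1 by the fold rule and 0 to 1 with 1 array left out, the 1 without LT7 replicate 1.

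The replicate numbers share no stated origin, and their deviations correlated by 0.078, 0.035 and -0.023 between groups. With the replicate number as a block, limma called 0 probes in LT7 (16289 unadjusted), 55243 in ST7 against GFP and 55323 against LT7, and the count of relatives did not change by over 1.5 times. Low signals limit what can be seen in LT7, where a probe had to reach 20.0 to 22.3.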

Other observations

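Some relatives were seen on only part of the arrays of a group. Pax3 had a signal of 84.5 in ST7 replicate 2 and 2.89 in ST7 replicate 1, and was not seen in GFP or LT7. Hmx3 had 56.7 in LT7 replicate 2 and 39.3 in ST7 replicate 2 and was not seen on the other 4 arrays. Msx1 had 44.4 and 30.4 on the GFP arrays, 17.5 and 38.1 on the LT7 arrays, and 38.1 and 175 on the ST7 arrays. Pitx3, the Pitx relative of the lens and midbrain, was seen on all arrays, with 44.6 and 42.2 on the GFP arrays, 22.5 and 24.4 on the LT7 arrays, and 45.2 and 43.6 on the ST7 arrays. Tbx2 and Lhx6 were seen on all arrays too, Tbx2 with 177 to 299 and Lhx6 with 398 to 937.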
